A study of Mus musculus with 11 samples.

Results

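Dendritic cells take up antigen, carry it to T cells and present it, and the 10 genes described here are markers by which their subsets are told apart. The genes were listed by symbol, as Xcr1, Clec9a, Batf3, Flt3, Zbtb46, Siglech, Ccr9, Cd209a, Fscn1 and Ly75, and all 10 were found among the 25677 genes of the count table. They were followed in the kidneys of 11 female mice aged 21 weeks, each with its own library. The control group (Ctr, n = 3) held C57BL/6J mice. The Lpr group (n = 4) held untreated MRL/lpr mice, a strain with defective Fas that falls ill with a nephritis like that of lupus. The DNase group (n = 4) held MRL/lpr mice that were injected with DNase I, an enzyme that digests extracellular DNA, into the peritoneum every day from week 17. Since all controls were C57BL/6J, strain and disease cannot be told apart in any difference from Ctr. No untreated group with a sham injection was analysed here.

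Conventional dendritic cells fall into type 1 cells (cDC1), which depend on Batf3 and Irf8 and cross-present antigen of dead cells to cytotoxic T cells, and type 2 cells (cDC2), which mainly prime helper T cells. Plasmacytoid dendritic cells (pDC) release type I interferon after their Toll-like receptors meet nucleic acids, and they are much studied in lupus for this reason. Dendritic cells that have taken up a danger signal mature, which changes their surface and cytoskeleton before they move to lymph nodes. In whole kidney, more cells of a type and more RNA per cell cannot be told apart, and several of these genes are also known from other cells, such as Zbtb46 from endothelium and Batf3, Ly75 and Ccr9 from lymphocytes.

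The libraries held between 33469858 and 38460873 counts, so that 0.1 CPM (counts scaled to the TMM library size) stands for about 3 reads. Kidney identity was plain in all libraries, since 8 tubule genes summed to between 9900 and 17300 CPM. Lpr replicate 3 stood apart: its counts fell with gene length, by -0.43 log2 units for each doubling, against -0.04 to 0.08 in the other 10 libraries. Fold changes of members, numbers called in the lists, levels relative to Ptprc and the order per length are also given without this library, most of them beside the value that includes it. Leaving it out of the lists, the levels relative to Ptprc and the order was chosen after seeing the data. Genes were tested with edgeR's quasi-likelihood test over all genes that passed its filter, and every adjusted p below is from that test after Benjamini-Hochberg adjustment over all genes tested. A call needed an adjusted p under 0.05 together with a log2 fold change beyond 2 in either direction, and a looser rule used the adjusted p alone. SE is the standard error of a log2 fold change.

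Between Lpr and Ctr, Xcr1 and Ly75 were called higher and no member was called lower. By the adjusted p alone Clec9a and Flt3 were also higher. The 2 called members compare with 4.65% of all 16074 genes tested called higher and 1.13% called lower, and the 4 with 7.27% higher and 2.92% lower by the adjusted p alone. Between DNase and Lpr none of the 9 members tested passed, and Cd209a had too few reads for the test. Cd209a, the gene that was lowest against Ctr in both MRL/lpr groups, was called lower in DNase than in Ctr. The median log2 fold change of the 10 members between Lpr and Ctr was 1.46, against 0.03 over all genes tested.

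The stretches of the genome before the start sites of 5 members are shown, since 3 of them (Xcr1, Clec9a and Flt3) rose against Ctr, 1 (Cd209a) fell between DNase and Ctr, and 1 (Siglech) is a pDC gene with a motif match. All 10 members matched RefSeq's promoter table for GRCm38.p6 (mm10), of which the 250 bases before the start were used. Xcr1 lies on the minus strand with its window at chr9:123862030-123862279, Clec9a on the plus strand at chr6:129408612-129408861, Flt3 on the minus strand at chr5:147400490-147400739, Cd209a on the minus strand at chr8:3748985-3749234, and Siglech on the plus strand at chr7:55767934-55768183. Sequences run 5′ to 3′ on the gene's strand, in lower case, with a match to a searched motif in capitals.
Xcr1: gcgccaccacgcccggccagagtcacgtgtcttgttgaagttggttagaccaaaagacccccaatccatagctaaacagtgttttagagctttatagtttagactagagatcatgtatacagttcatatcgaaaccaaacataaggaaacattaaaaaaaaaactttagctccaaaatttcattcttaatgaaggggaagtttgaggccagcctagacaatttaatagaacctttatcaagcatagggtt
Clec9a: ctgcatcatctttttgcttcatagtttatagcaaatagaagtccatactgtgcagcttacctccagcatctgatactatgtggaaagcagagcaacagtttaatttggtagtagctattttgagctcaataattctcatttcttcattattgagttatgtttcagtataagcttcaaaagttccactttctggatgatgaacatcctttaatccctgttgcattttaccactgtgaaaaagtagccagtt
Flt3: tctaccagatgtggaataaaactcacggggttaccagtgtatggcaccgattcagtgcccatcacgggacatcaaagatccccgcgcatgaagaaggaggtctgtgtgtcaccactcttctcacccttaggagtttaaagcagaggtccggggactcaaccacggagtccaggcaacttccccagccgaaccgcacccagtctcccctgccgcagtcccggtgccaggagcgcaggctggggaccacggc
Cd209a: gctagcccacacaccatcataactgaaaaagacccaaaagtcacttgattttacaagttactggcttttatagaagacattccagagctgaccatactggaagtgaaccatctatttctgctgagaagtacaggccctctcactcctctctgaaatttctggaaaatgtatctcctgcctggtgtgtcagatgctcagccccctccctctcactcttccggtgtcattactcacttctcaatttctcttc
Siglech: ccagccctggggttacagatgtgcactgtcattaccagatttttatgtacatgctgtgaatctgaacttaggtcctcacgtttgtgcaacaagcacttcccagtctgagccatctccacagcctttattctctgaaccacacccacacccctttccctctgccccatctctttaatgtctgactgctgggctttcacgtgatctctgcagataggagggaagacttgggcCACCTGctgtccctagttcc

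The motifs searched on both strands were TGANTCA (AP-1, the site of Batf3 with Jun proteins), GAGGAA (the ETS core of PU.1), the IRF element (GAAA repeated 2 bases further on) and CAGGTG (an E-box of the Tcf4 type). No match to any of them stood in the windows of Xcr1, Clec9a, Flt3 or Cd209a. The capitals in the Siglech window mark the E-box on the opposite strand, a motif that 17.2% of 32841 promoter windows hold and 3 of the 10 members (Zbtb46, Siglech and Ccr9). AP-1 was found in 1 member (Zbtb46) and in 6.75% of all windows, ETS in 1 member (Batf3) and in 23.3%, and the IRF element in no member and in 2.98%. G and C made up 35.6% of the window of Clec9a and 38.8% of that of Xcr1, against 59.2% for Flt3, 50.8% for Siglech and 44.8% for Cd209a. The windows of Zbtb46, Ccr9 and Batf3 lay inside the longer gene spans of the GENCODE annotation and are not printed. Those of Ly75, which was also called higher in Lpr, and of Fscn1 are not printed either. Neither held a match, and G and C made up 66.8% of the window of Ly75 and 62.4% of that of Fscn1.

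Xcr1, the chemokine receptor that marks cDC1, is a gene of 2 exons on chromosome 9, and Ccr9 lies 67985 bp from it. Xcr1 measured 0.620, 0.223 and 0.839 CPM in the Ctr kidneys, 4.24, 6.67, 2.57 and 6.03 CPM in the Lpr kidneys, and 4.96, 5.36, 8.42 and 5.74 CPM in the DNase kidneys. Every MRL/lpr kidney lay above every control, and the ranges of Lpr and DNase overlapped. The Ctr mean was 0.561 ± 0.312 CPM (SD, n = 3) and the Lpr mean 4.88 ± 1.85 CPM (SD, n = 4), and Xcr1 rose 8.68-fold (log2 fold change 3.12, SE 0.529, adjusted p = 0.00670). With each library left out in turn the adjusted p stayed between 0.00294 and 0.0397, and without Lpr replicate 3 the log2 fold change was 3.32. Xcl1, which encodes the ligand of this receptor, differed between Lpr and Ctr by 1.29 on the log2 scale (SE 0.622, adjusted p = 0.281), with overlapping groups.

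Clec9a encodes a C-type lectin by which cDC1 bind the actin of dead cells. It measured 1.13, 0.924 and 0.989 CPM in Ctr, 4.55, 4.58, 1.71 and 3.51 CPM in Lpr, and 3.40, 3.39, 4.06 and 2.47 CPM in DNase. The controls sat close together, and Lpr replicate 3 was the lowest of the MRL/lpr kidneys but still above all controls. Clec9a was 3.55-fold higher in Lpr than in Ctr (log2 fold change 1.83, SE 0.396, adjusted p = 0.0206). Without Lpr replicate 3 the log2 fold change was 2.06, past the fold limit, with an adjusted p of 0.00180. The call by the adjusted p was lost without any of the 3 Ctr kidneys or without Lpr replicate 1 or 2, with an adjusted p of up to 0.0913. The annotated exons of Clec9a share 184 bp with those of Clec1b on the same strand.

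Batf3 encodes a transcription factor needed for the development of cDC1. Its levels were 1.19, 0.988 and 0.360 CPM in Ctr, 3.05, 1.48, 4.55 and 1.81 CPM in Lpr, and 1.37, 1.27, 2.95 and 1.47 CPM in DNase. All MRL/lpr kidneys lay above the controls. Between Lpr and Ctr the log2 fold change was 1.70 (SE 0.546), and its adjusted p of 0.0976 did not pass. Lpr replicate 3 was the highest of all kidneys for this short transcript, and without it the log2 fold change was 1.32 with an adjusted p of 0.114.

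**Figure D1:**
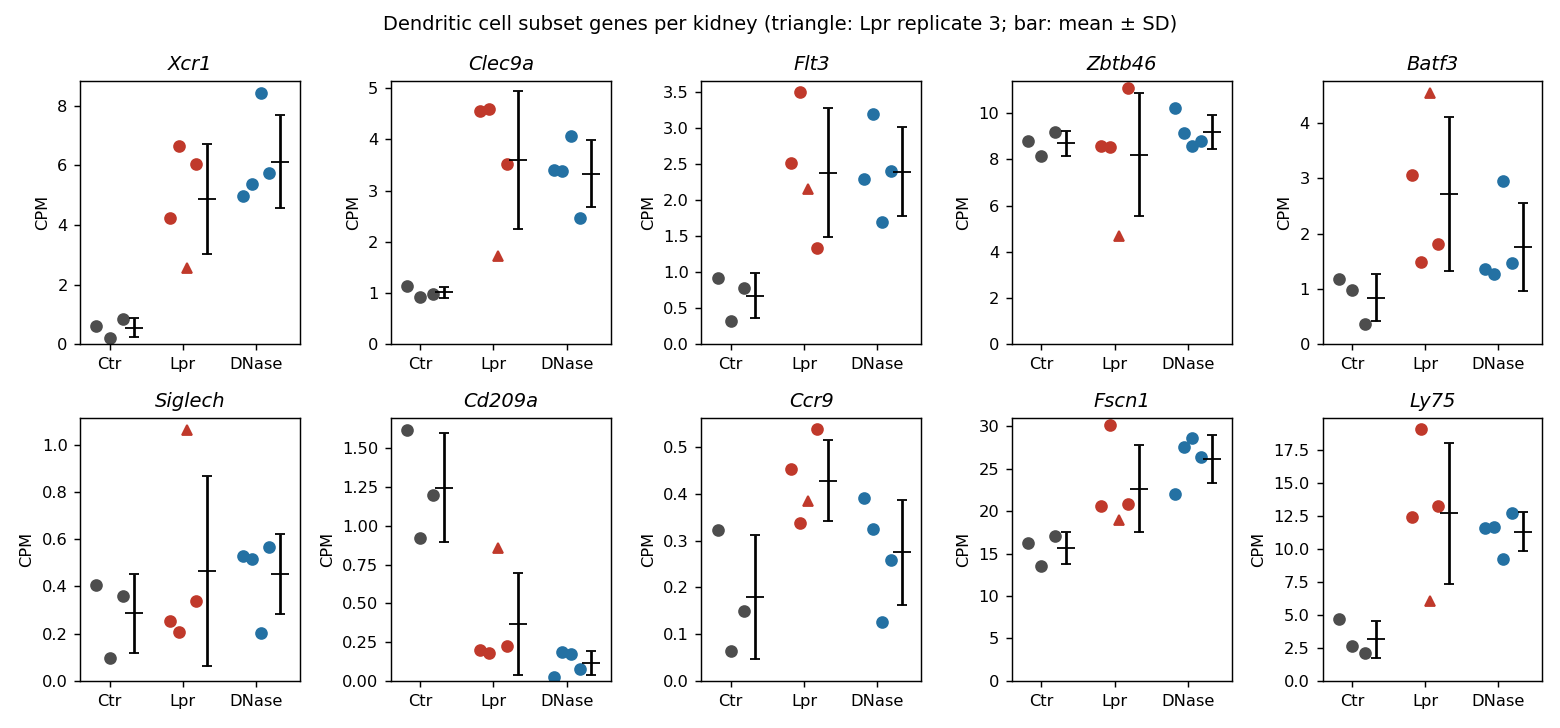
TMM-scaled CPM of the 10 dendritic cell genes in each kidney (vertical axes, 1 panel a gene) by group (horizontal axis); points are kidneys, bars give the group mean ± SD, and the triangle is Lpr replicate 3. Xcr1, Clec9a, Batf3, Flt3, Fscn1 and Ly75 lie higher in all 8 MRL/lpr kidneys than in any control, while Zbtb46 overlaps between the groups.

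Flt3, the receptor for the growth factor that dendritic cell precursors need, was followed for conventional and plasmacytoid cells alike. It measured 0.917, 0.319 and 0.779 CPM in Ctr, 2.52, 3.49, 2.16 and 1.33 CPM in Lpr, and 2.29, 3.2, 1.69 and 2.39 CPM in DNase. No MRL/lpr kidney reached down to the controls. The rise from Ctr to Lpr was 3.54-fold (log2 fold change 1.82, SE 0.484, adjusted p = 0.0480). It lost its call without any 1 of the Ctr kidneys or without Lpr replicate 1 or 2, with an adjusted p of up to 0.143, and without Lpr replicate 3 it had a log2 fold change of 1.86 with an adjusted p of 0.0428. Its ligand gene Flt3l had a log2 fold change of 0.47 (SE 0.256, adjusted p = 0.348) in the same comparison.

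Zbtb46 encodes a transcription factor of conventional dendritic cells that is also known from endothelium. It was present at 8.79, 8.13 and 9.17 CPM in Ctr, 8.56, 8.54, 4.67 and 11.1 CPM in Lpr, and 10.2, 9.16, 8.57 and 8.81 CPM in DNase. The groups overlapped throughout, and Lpr replicate 3 was the lowest kidney for this gene, whose length, as the authors' FPKM values imply it, is 8247 bp, the longest of the members on that scale. The log2 fold change between Lpr and Ctr was -0.07, with a 95% interval of -0.72 to 0.57, and it was 0.12 without Lpr replicate 3. Between DNase and Ctr it was 0.08, with an interval of -0.19 to 0.35. Of the 7 endothelial genes, none was called in either comparison, and their sum lay at 572 to 662 CPM in Ctr, 403 to 630 CPM in Lpr and 462 to 629 CPM in DNase. The part of endothelium in the level of Zbtb46 was not tested.

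Siglech, a sialic acid-binding lectin of the pDC surface, was near the limit of detection, with 3 to 36 reads a kidney. It measured 0.404, 0.0956 and 0.360 CPM in Ctr, 0.254, 0.208, 1.06 and 0.340 CPM in Lpr, and 0.530, 0.515, 0.202 and 0.566 CPM in DNase. The 3 groups overlapped, and the highest value again belonged to Lpr replicate 3. The difference of 0.69 on the log2 scale between Lpr and Ctr (SE 0.728, adjusted p = 0.650) was -0.11 without that library. No difference was detected at this depth, and the 95% interval with all kidneys, from -0.97 to 2.35, leaves room for one.

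Ccr9, the receptor for the gut chemokine Ccl25 on pDC and on T cells, was as sparse. It gave 12, 2 and 5 reads in Ctr (0.324, 0.0638 and 0.150 CPM), 16, 13, 13 and 19 reads in Lpr (0.452, 0.339, 0.384 and 0.538 CPM), and 14, 12, 5 and 10 reads in DNase (0.390, 0.325, 0.126 and 0.257 CPM). The Lpr kidneys all lay above Ctr by a narrow margin, and the DNase kidneys overlapped with both groups. Between Lpr and Ctr the difference of 1.23 on the log2 scale did not pass (SE 0.555, adjusted p = 0.248), nor did the 1.27 without Lpr replicate 3 (adjusted p = 0.185). Ccl25 itself had a log2 fold change of -0.03 (adjusted p = 0.969). The exons annotated for Ccr9 overlap 3 other transcripts, 1 of them over 18.8% of their length, and whether reads were counted by strand is not given in the sources used here.

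Cd209a, a relative of DC-SIGN carried by cDC2 and monocyte-derived dendritic cells, was the member with lower levels in the MRL/lpr kidneys. It measured 1.62, 0.924 and 1.20 CPM in Ctr, 0.198, 0.182, 0.857 and 0.227 CPM in Lpr, and 0.0279, 0.190, 0.177 and 0.0772 CPM in DNase. In reads these were 29 to 60 in the controls, 7 or 8 in the other Lpr kidneys against 29 in Lpr replicate 3, and 1 to 7 in DNase. Every MRL/lpr kidney lay below every control. Between Lpr and Ctr the log2 fold change of -1.76 did not pass (SE 0.60, adjusted p = 0.118). Without Lpr replicate 3 it was -2.60 with an adjusted p of 0.00400, a call. Between DNase and Ctr the gene was called lower, 10.3-fold (log2 fold change -3.36, SE 0.499, adjusted p = 0.00122).

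Fscn1 encodes fascin, the actin-bundling protein of the extensions of mature dendritic cells, which other cells make as well. It measured 16.3, 13.5 and 17.1 CPM in Ctr, 20.5, 30.2, 19.0 and 20.9 CPM in Lpr, and 22.1, 27.5, 28.5 and 26.4 CPM in DNase. The MRL/lpr kidneys were all above the controls, by a small step. The log2 fold change between Lpr and Ctr was 0.55 (SE 0.212, adjusted p = 0.173) and did not pass, nor did the 0.62 without Lpr replicate 3 (adjusted p = 0.0551). Between DNase and Ctr it was 0.74 and passed by the adjusted p alone (SE 0.127, adjusted p = 0.00272).

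Ly75 encodes DEC-205, an endocytic receptor of cDC1 and of mature dendritic cells that lymphocytes and some epithelia carry too. It measured 4.72, 2.65 and 2.10 CPM in Ctr, 12.4, 19.1, 6.06 and 13.3 CPM in Lpr, and 11.6, 11.7, 9.25 and 12.7 CPM in DNase. All MRL/lpr kidneys lay above the controls, and Lpr replicate 3 was the lowest of them. Ly75 was 4.05-fold higher in Lpr than in Ctr (log2 fold change 2.02, SE 0.437, adjusted p = 0.0206), just past the fold limit, and with Lpr replicate 3 left out the log2 value was 2.25 (adjusted p = 0.00387). Without Lpr replicate 2 the log2 fold change fell to 1.74, and without Ctr replicate 2 or 3 the adjusted p no longer passed, reaching 0.0950. The exons of Ly75 share 249 bp with an antisense gene, Gm13571.

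Counted over the list, every Lpr kidney lay above every control for 7 of the 10 members and below for 1 (Cd209a), where this held for 14.2% and 11.4% of all genes tested. Against Ctr, DNase kidneys showed the same absence of overlap upwards for 6 members and downwards for 1 (Cd209a), beside 18.2% and 13.7% of 16100 genes. Xcr1 was the only member called higher in DNase, by 10.8-fold (log2 fold change 3.43, SE 0.397, adjusted p = 0.000274), and Cd209a the only one called lower, beside 4.56% and 1.45% of all genes. By the adjusted p alone 5 members were higher (Xcr1, Clec9a, Flt3, Fscn1 and Ly75) and 1 lower, beside 13.1% and 8.61%. Clec9a had a log2 fold change of 1.71 (SE 0.243), Flt3 of 1.82 (SE 0.385) and Ly75 of 1.84 (SE 0.268) in this comparison. The comparisons of Lpr and of DNase with Ctr share the 3 control kidneys, so a low or high control moves both.

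**Figure D2:**
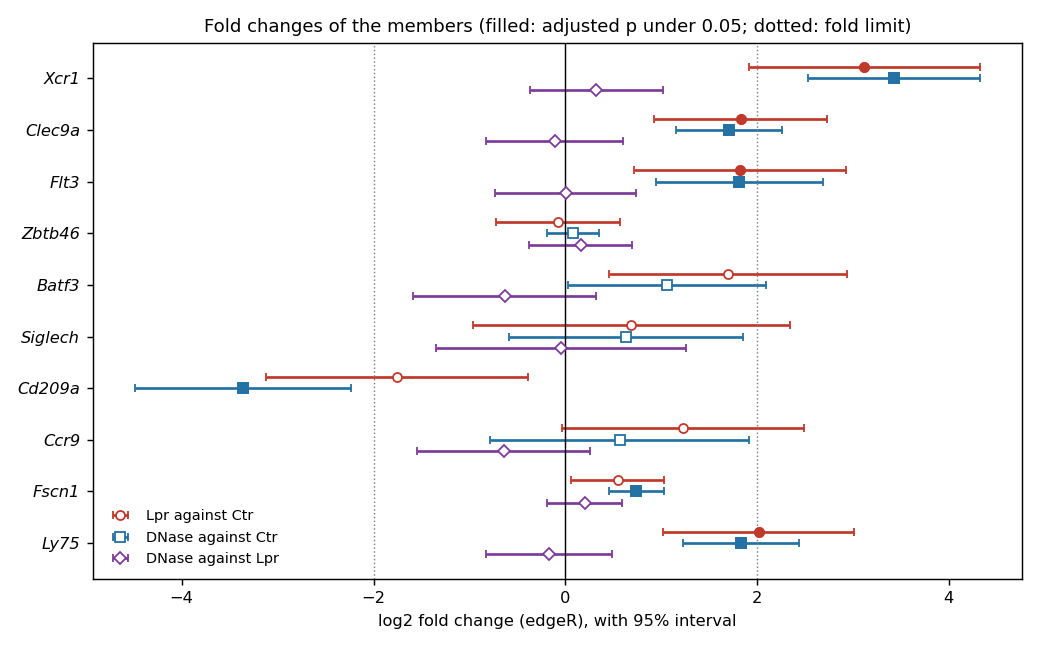
Log2 fold changes of the 10 dendritic cell genes from edgeR (horizontal axis) with 95% intervals, for Lpr against Ctr (red circles), DNase against Ctr (blue squares) and DNase against Lpr (purple diamonds); filled markers have an adjusted p under 0.05 and dotted lines mark the fold limit of 2. The purple intervals all include 0, while those of Xcr1 against Ctr lie between 1.91 and 4.33.

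The comparison of DNase with Lpr asked whether the enzyme moved these genes within MRL/lpr mice. No gene of the whole table was called in it, 0% of 15832 under both rules and in both directions, with 886 genes at an unadjusted p under 0.05. DESeq2 called 2 genes higher and 3 lower in this comparison, and no member. Of the members 9 passed the filter, and their smallest unadjusted p was 0.144, for Ccr9. Xcr1 had a log2 fold change of 0.33 with a 95% interval of -0.37 to 1.02, Clec9a of -0.11 (-0.82 to 0.60) and Ly75 of -0.17 (-0.83 to 0.49). The widest shifts belonged to Ccr9, at -0.64 (-1.55 to 0.26), and Batf3, at -0.63 (-1.59 to 0.32). With Lpr replicate 3 left out the values were 0.11 for Xcr1, -0.35 for Clec9a, -0.41 for Ly75 (unadjusted p = 0.0495, adjusted p = 0.494), -0.69 for Ccr9 and -0.26 for Batf3, and no member passed. The intervals do not show that the levels were alike.

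Both groups overlapped for all 10 members, where no overlap occurred for 2.08% of all genes upwards and 1.68% downwards. Cd209a had too few reads for the filter in this fit. The difference of its log2 CPM (prior count of 2), DNase minus Lpr, was -1.16, with p = 0.0571 in a two-sided exact permutation test over samples, whose smallest possible p is 0.0286. The highest of the Lpr values was the 0.857 CPM of Lpr replicate 3.

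Read per length, as FPKM (counts scaled by gene length and library total), the members differed widely in level. Fscn1 came first in all 3 groups, at 5.67 ± 0.818 FPKM (SD, n = 3) in Ctr, 8.51 ± 2.19 FPKM (SD, n = 4) in Lpr and 10.1 ± 1.14 FPKM (SD, n = 4) in DNase, with no overlap with the next gene, Batf3. In Ctr the order then ran Batf3 (1.14 FPKM), Zbtb46 (1.02 FPKM), Cd209a (0.813 FPKM), Ly75 (0.443 FPKM), Clec9a (0.298 FPKM), Xcr1 (0.123 FPKM), Flt3 (0.105 FPKM), Siglech (0.0728 FPKM) and Ccr9 (0.0396 FPKM). Apart from Fscn1 and Batf3, the only neighbours in that order without overlap were Clec9a and Xcr1.

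In Lpr the order after Batf3 (3.75 FPKM) was Ly75 (1.87 FPKM), Xcr1 (1.11 FPKM), Clec9a (1.10 FPKM), Zbtb46 (1.00 FPKM), Flt3 (0.381 FPKM), Cd209a (0.240 FPKM), Siglech (0.119 FPKM) and Ccr9 (0.0975 FPKM), and all of these neighbours overlapped. When Lpr replicate 3 was left out the order after Fscn1 (9.12 FPKM) was Batf3 (3.00 FPKM), Ly75 (2.22 FPKM), Clec9a (1.30 FPKM), Xcr1 (1.30 FPKM), Zbtb46 (1.16 FPKM), Flt3 (0.399 FPKM), Cd209a (0.139 FPKM), Ccr9 (0.103 FPKM) and Siglech (0.0711 FPKM). Neighbours without overlap were then Fscn1 and Batf3, Ly75 and Clec9a, Zbtb46 and Flt3, Flt3 and Cd209a, and Cd209a and Ccr9. In DNase the order after Fscn1 was Batf3 (2.56 FPKM), Ly75 (1.70 FPKM), Xcr1 (1.42 FPKM), Zbtb46 (1.15 FPKM), Clec9a (1.04 FPKM), Flt3 (0.396 FPKM), Siglech (0.122 FPKM), Cd209a (0.0821 FPKM) and Ccr9 (0.0645 FPKM), where Flt3 overlapped with neither Clec9a nor Siglech. By these means Cd209a stood above Xcr1, Clec9a, Flt3 and Siglech in the controls and below all of them in DNase. The level of Batf3 per length depends on the 712 bp that the authors' values imply for it, where GENCODE's exons add up to 1597 bp, and that of Ccr9 on 4392 bp, where they add up to 10260 bp.

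The higher levels of members in Lpr stood beside higher levels of leukocyte genes. Ptprc, which encodes the CD45 antigen of all leukocytes, rose from 9.14 CPM in Ctr to 69.5 CPM in Lpr (log2 fold change 2.94, adjusted p = 0.00165). Relative to Ptprc, as the difference of log2 CPM in each kidney, Xcr1 was the member whose level stayed nearest to that of the controls, at 0.19 between Lpr and Ctr with overlapping groups. Ly75 (-0.91), Flt3 (-1.10) and Clec9a (-1.20) lay lower relative to Ptprc in every Lpr kidney than in any control. Cd209a lay lower by a difference of -4.73, Zbtb46 by -3.02 and Fscn1 by -2.36, again with no overlap. In the kidneys other than Lpr replicate 3 these values were 0.28 for Xcr1, -0.78 for Ly75, -1.27 for Flt3, -1.07 for Clec9a, -5.37 for Cd209a, -2.96 for Zbtb46 and -2.47 for Fscn1, and of these 7 only Xcr1 overlapped. With all kidneys Batf3 (-1.24) and Siglech (-2.37) overlapped between Lpr and Ctr, and Ccr9 (-1.69) did not. Without Lpr replicate 3 Batf3 (-1.71) overlapped, and Siglech (-3.01) and Ccr9 (-1.83) did not.

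When the mean of 6 leukocyte genes took the place of Ptprc, Xcr1 lay at 0.68 between Lpr and Ctr, and Clec9a (-0.71), Flt3 (-0.61) and Ly75 (-0.43) then overlapped between the groups. With Lpr replicate 3 left out they were 0.98 for Xcr1, now with no overlap, -0.37 for Clec9a, -0.57 for Flt3 and -0.08 for Ly75. On this scale Ly75, and not Xcr1, stayed nearest to the controls, with or without that library. Between DNase and Lpr all 10 members overlapped on both scales, with or without that library. These are differences of levels given as a description, with no test. The share of all genes without overlap was not computed on either scale, so the separations are not a trait shown to be particular to the members. The share of leukocyte number in the changes of the members was not tested.

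**Figure D3:**
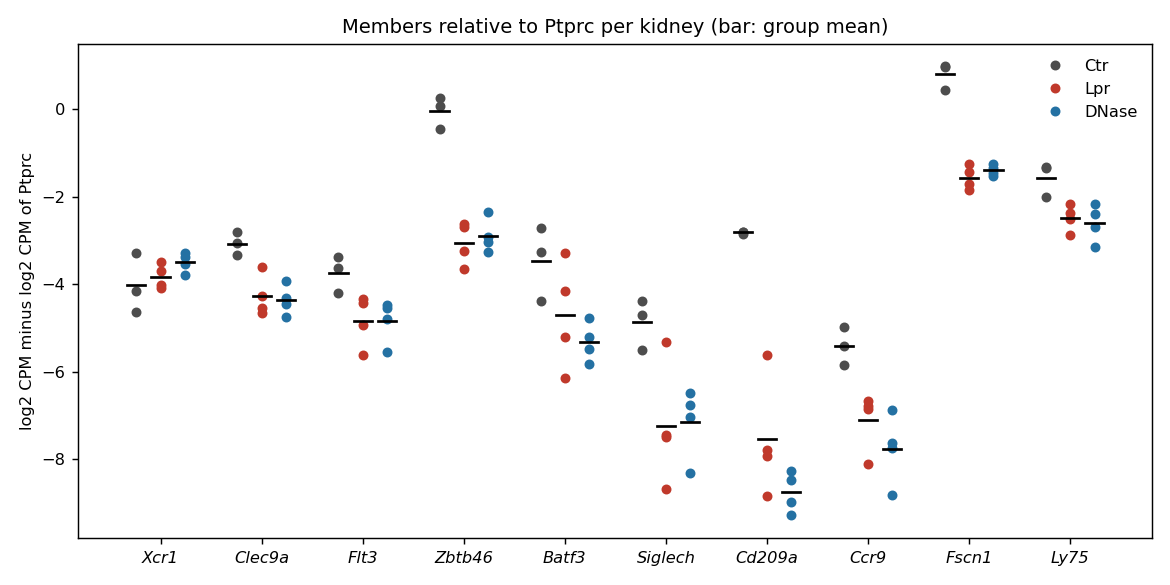
Log2 CPM of each dendritic cell gene minus that of Ptprc in each kidney (vertical axis), by gene (horizontal axis) and group; points are kidneys and bars are group means. Xcr1 overlaps between all 3 groups, and Cd209a lies lower in all 8 MRL/lpr kidneys than in any control.

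Other cDC1 genes behaved in part like Xcr1 and Clec9a. Of 15 tested, 3 were called higher in Lpr than in Ctr and 7 passed by the adjusted p alone, none was lower, and the median log2 fold change was 1.23. Of all 16074 genes tested 4.65% were called higher and 7.27% were higher by the adjusted p alone, shares that apply to each list below as well. Irf8, the transcription factor that specifies cDC1 and acts in pDC, monocytes and B cells too, had a log2 fold change of 1.73 (adjusted p = 0.0138). Naaa, a lysosomal amidase used as a cDC1 marker, had one of 1.23 (adjusted p = 0.00412), and Gcsam, a signalling adaptor better known from germinal centre B cells, one of 2.73 (adjusted p = 0.0174). No cDC1 gene passed between DNase and Lpr, with a median of -0.29, and Naaa lay lower in every DNase kidney (log2 fold change -0.43, unadjusted p = 0.0101, adjusted p = 0.820).

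Among 11 other genes of cDC2 and monocyte-derived cells, 3 were called higher in Lpr and 5 passed by the adjusted p alone, with a median of 1.38. Itgam, the CD11b integrin shared with macrophages and neutrophils, had a log2 fold change of 3.74 (adjusted p = 0.000726), and Cd300a, an inhibitory receptor of myeloid cells, one of 3.08 (adjusted p = 0.00217). The lectin gene Clec10a differed in direction from Cd209a. It measured 2.26, 0.701 and 1.68 CPM in Ctr, 5.34, 5.26, 6.23 and 6.85 CPM in Lpr, and 0.920, 2.6, 2.12 and 2.81 CPM in DNase. Lpr kidneys stood above both other groups, with a log2 fold change of 1.94 against Ctr (adjusted p = 0.0156). Between DNase and Lpr it was -1.49, with no overlap and an unadjusted p of 0.00111, and the adjusted p of 0.820 did not pass.

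Mgl2, the lectin gene that is paired with Clec10a as a cDC2 marker, was uneven in Lpr. It measured 5.99, 4.62 and 6.59 CPM in Ctr, 41.8, 3.28, 12.5 and 2.10 CPM in Lpr, and 2.31, 3.71, 1.24 and 3.19 CPM in DNase. Lpr replicate 1 was far above the rest, and the Lpr kidneys overlapped with both other groups. The gene was lower in DNase than in Ctr by the adjusted p alone, with a log2 fold change of -1.13 (adjusted p = 0.0383), and the difference from Lpr was -2.51 (adjusted p = 0.820).

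Of 13 other pDC genes tested, 2 were called higher in Lpr and 5 passed by the adjusted p alone, beside 4.65% and 7.27% of all genes tested. The median was 1.83. With Lpr replicate 3 left out 6 of 13 were called. Those that led were genes with a wider range. Bst2, which interferon induces in many cells, had a log2 fold change of 2.83 (adjusted p = 0.000929), Lair1, an inhibitory receptor of many leukocytes, 2.49 (adjusted p = 0.00502), and Tlr7, a sensor of RNA in pDC, macrophages and B cells, 1.83 (adjusted p = 0.0105). Tcf4, the factor that specifies pDC and that other kidney cells make, stood at 0.10 (adjusted p = 0.855). Klk1, a kallikrein gene of kidney tubule, made up most of the sum of this list.

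Spib, a transcription factor of pDC and B cells, measured 0.917, 0.0956 and 0.360 CPM in Ctr, 1.75, 1.85, 1.71 and 1.5 CPM in Lpr, and 2.73, 3.12, 4.92 and 3.40 CPM in DNase. Every DNase kidney lay above every Lpr kidney, with a log2 fold change of 1.05 (unadjusted p = 0.00188, adjusted p = 0.820). Of the 13 other pDC genes tested between DNase and Lpr, 5 had log2 fold changes above 0 and 8 below, with a median of -0.01. Bst2 went the other way from Spib, at -0.84 (unadjusted p = 0.00524, adjusted p = 0.820), with overlapping groups. In the same comparison all 7 B cell genes had log2 fold changes above 0, with a median of 1.38 and none called. Their sum was 18.8 to 46.0 CPM in DNase against 17.7 to 31.9 CPM in Lpr. Without Lpr replicate 3 the lowest of these 7 B cell genes was at -0.25 and their median at 1.23, with none called. Their part in the level of Spib was not tested.

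Of 19 other genes of mature dendritic cells tested, 6 were called higher in Lpr and 10 passed by the adjusted p alone, with a median of 1.97. The costimulatory ligands Cd80 and Cd86 had log2 fold changes of 4.72 (adjusted p = 0.00340) and 2.94 (adjusted p = 0.00199), and Samsn1, an adaptor of immune cells, one of 3.18 (adjusted p = 0.00218). B cells and macrophages carry Cd80 and Cd86 too. Socs2, a suppressor of cytokine signalling, had the smallest unadjusted p of the list between DNase and Lpr, 0.00557, with a log2 fold change of -1.26 and an adjusted p of 0.820.

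Genes shared by dendritic cells and other antigen-presenting cells had the highest median of the dendritic cell lists. Of 12 tested, 8 were called higher in Lpr, 9 passed by the adjusted p alone, and the median log2 fold change was 2.55. Cd74, the invariant chain of class II molecules, reached 3.91 (adjusted p = 0.000201), the class II gene H2-Aa 2.85 (adjusted p = 0.000611), and the myeloid factor Spi1 2.57 (adjusted p = 0.000713). Itgax, the CD11c integrin by which dendritic cells are commonly gated, measured 3.07, 3.06 and 2.76 CPM in Ctr, 40.1, 26.8, 9.34 and 11.4 CPM in Lpr, and 15.8, 22.7, 41.3 and 22.6 CPM in DNase. It was 2.89 higher on the log2 scale in Lpr than in Ctr (adjusted p = 0.00943), with no kidney of either MRL/lpr group near the controls. In DNase against Lpr Kmo, an enzyme of tryptophan breakdown that tubule cells also make, had a log2 fold change of 0.50 and H2-Ab1 one of -0.60, each with an adjusted p of 0.820.

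**Figure D4:**
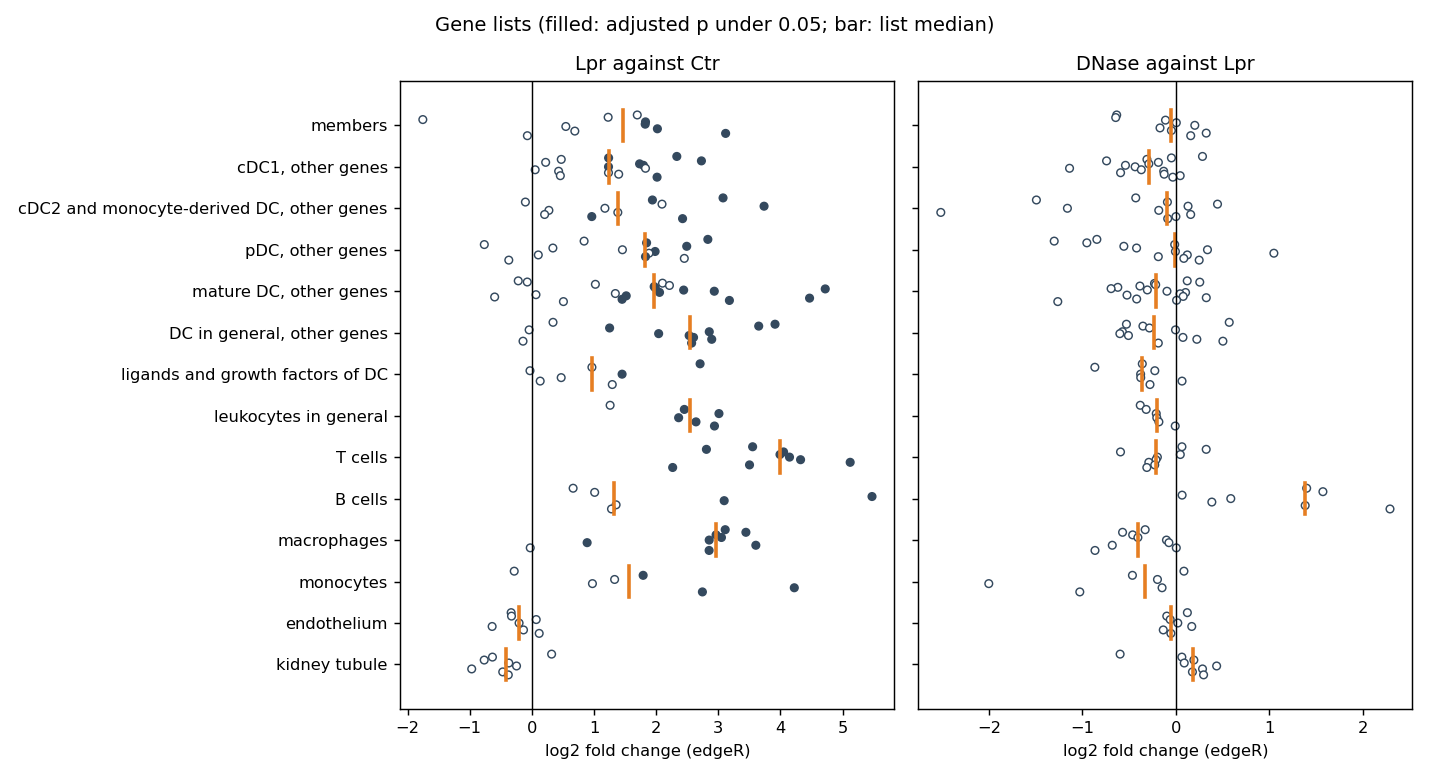
Log2 fold changes of the genes of each list drawn (horizontal axis), by list (vertical axis), for Lpr against Ctr and DNase against Lpr. Points are genes, filled where the adjusted p was under 0.05, and the bar is the list's median. The lists of plasma cells, NK cells, neutrophils, podocytes and adipocytes are not drawn. Between Lpr and Ctr the medians of the dendritic cell lists lie between 0.97 and 2.55, and between DNase and Lpr from -0.36 to -0.01.

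Of the 8 genes for ligands and growth factors of dendritic cells, 7 were tested between Lpr and Ctr, since Csf2 had too few reads. Ccl19, a ligand of Ccr7 that draws mature dendritic cells, was called higher, with a log2 fold change of 2.71 (adjusted p = 0.00473). Csf1, the growth factor of macrophages, passed by the adjusted p alone at 1.45 (adjusted p = 0.00274). Ccl21a, the other ligand of Ccr7, stood at 0.97 (adjusted p = 0.125) and Kitl, the stem cell factor, at 0.13 (adjusted p = 0.727). None of the 7 passed between DNase and Lpr, where Ccl21a had -0.87, Csf1 -0.38, Flt3l -0.37, Ccl19 -0.36, Xcl1 -0.28, Ccl25 -0.22 and Kitl 0.07. Ccl25 was 0.06 and Ccl21a -0.60 with Lpr replicate 3 left out, and none passed. The values of Flt3l lay between 3.63 and 4.63 CPM in DNase and between 4.64 and 7.29 CPM in Lpr, so that these groups met without overlapping.

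Markers of other leukocytes were also called higher in Lpr than in Ctr, in all of the T cell list and in part of the others. All 9 T cell genes tested were called higher (sum 59.7 to 161 CPM in Lpr and 6.34 to 12.8 CPM in Ctr), with Lck, Cd3g and Cd3e at log2 fold changes of 3.50, 4.15 and 3.99. Of 9 macrophage genes 7 were called (696 to 1350 CPM against 200 to 245 CPM), of 6 plasma cell genes 4, of 6 B cell genes 2 (17.7 to 31.9 CPM against 1.24 to 6.77 CPM), of 6 monocyte genes 2, of 4 neutrophil genes 3 and of 3 NK cell genes 2. The NK cell genes called were Nkg7 and Eomes, while Klrb1c had a log2 fold change of -0.13 (adjusted p = 0.949). No gene of endothelium, podocytes, kidney tubule or adipocytes was called in this comparison. The podocyte genes summed to 363 to 712 CPM in Lpr against 748 to 834 CPM in Ctr. Tubule genes summed to 9900 to 14800 CPM against 16100 to 17300 CPM, and neither sum overlapped between the groups. Adipocyte genes spread widely, from 34.8 to 1370 CPM in Lpr and from 65.9 to 1080 CPM in Ctr. Without Lpr replicate 3, 2 of 5 podocyte, 2 of 8 tubule and 1 of 7 endothelial genes were lower by the adjusted p alone. The part of these cell types in the levels of the members was not tested.

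With Lpr replicate 3 left out, the numbers called higher in Lpr than in Ctr differed for 4 lists, at 4 of 11 genes for cDC2 and monocyte-derived cells, 6 of 13 for pDC, 8 of 17 for mature dendritic cells and 3 of 5 for plasma cells. The other lists had the same number called, and no gene of any list was called lower. No list had a call between DNase and Lpr with or without that library.

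Within the groups the members did not move as 1 block. Over the 11 kidneys, as deviations of log2 CPM from the group means, the highest correlation between members was that of Xcr1 with Fscn1 (r = 0.74), which was 0.68 over the 10 kidneys without Lpr replicate 3. Clec9a went with Zbtb46 (r = 0.73), and this turned to -0.33 without that library. Siglech and Ccr9 had r = 0.60, and 0.90 without it, over counts of at most 36 reads. Xcr1 and Clec9a, the surface markers of cDC1, had r = 0.59, and 0.28 without it. Cd209a and Zbtb46 had r = -0.73, and -0.17 without it. The points share depth and the length slope of their library, with which Zbtb46 (r = 0.87) and Clec9a (r = 0.76) went up and Cd209a (r = -0.71) went down.

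**Figure D5:**
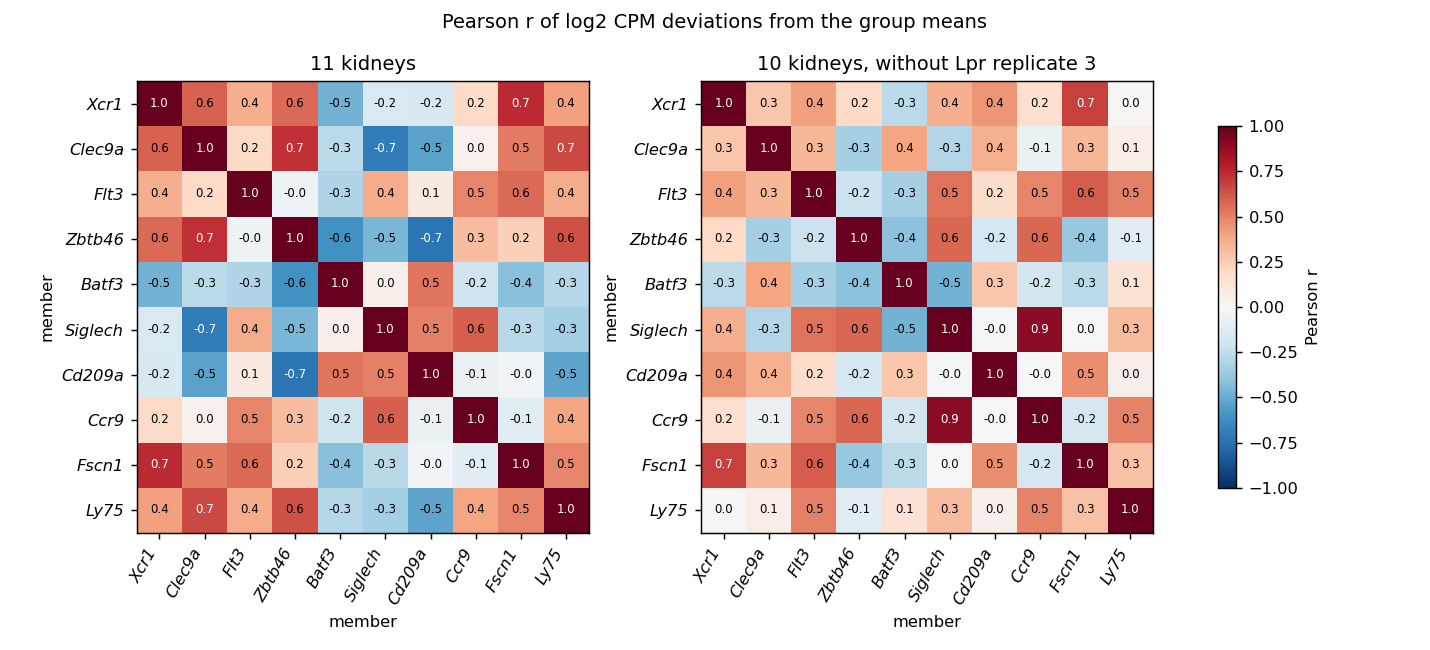
Pearson correlation between dendritic cell genes over 11 kidneys, as deviations of log2 CPM from the group means, with all libraries (left) and without Lpr replicate 3 (right). Xcr1 with Fscn1 has 0.74 and 0.68, and Clec9a with Zbtb46 changes from 0.73 to -0.33.

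The genes most like each member in these deviations were sought among 14848 genes over the 11 kidneys. Fscn1 was closest to Tbx21 (r = 0.98), the T-bet factor of effector T cells, and to Tigit (r = 0.98), a checkpoint receptor of T and NK cells, with Tnip1 next (r = 0.96). Xcr1 was closest to Trp53inp2 (r = 0.97), Runx1t1 (r = 0.95) and Il16 (r = 0.95), a cytokine of lymphocytes. Clec9a was closest to Jak3 (r = 0.97), the kinase of cytokine receptors of lymphocytes, to Mitf (r = 0.97) and to Il1a (r = 0.97). These 9 values stayed at 0.896 or above without Lpr replicate 3.

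For Flt3 the nearest genes were Efcc1 (r = 0.95), Pcyt1b (r = 0.93) and Creb3l4 (r = 0.93), and for Ccr9 Slc10a1 (r = 0.91), Ifi205 (r = 0.91) and Cd200r3 (r = 0.90). Batf3 was nearest to Nat9, Isoc2a and Ptges2, each with r = 0.93, and Ly75 to the uncharacterised locus LOC118568394, Map2k6 and Rnf121, each with r = 0.94. Siglech went with Serpina1b, Syndig1 and Sh3bgr, each with r = 0.95. Zbtb46 was nearest to Arhgap5, Sncaip and Fnbp1l (r = 0.99 for each), and Cd209a to Mmd2 (r = 0.94), Kat8 (r = 0.92) and Tmem145 (r = 0.92). Over the kidneys other than Lpr replicate 3 the values were 0.81 to 0.88 for Cd209a, 0.86 to 0.88 for Ly75, 0.90 to 0.91 for Siglech, 0.91 to 0.93 for Batf3, 0.92 to 0.96 for Zbtb46, 0.93 to 0.95 for Flt3 and 0.90 to 0.91 for Ccr9. With so many genes and so few kidneys, high values are found for any gene, and no member was among the 3 genes nearest to another.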

How the data were processed

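RNA of whole kidney from 11 mice (3 Ctr, 4 Lpr, 4 DNase) was sequenced as 100 bp paired-end reads. The authors deposited raw counts of reads for each gene. They also deposited FPKM values, in which these counts are scaled by library total and gene length. The submitters' processing notes name mm10, fastp, HTSeq, DESeq2 and R 3.2.0. The methods name HTSeq for aligning reads; no other aligner, nor the annotation, is given in the sources used here. Each library is a separate mouse by the study's design, and groups follow the sample titles.

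Counts were analysed in R 4.3.3 with edgeR 4.0.16 (filterByExpr, TMM, quasi-likelihood test), fitting the libraries of the compared groups alone, with Benjamini-Hochberg adjustment over all genes tested. DESeq2 1.42.0 and limma 3.58.1 (log2(FPKM + 1) and log2(FPKM + 0.1), mean FPKM of at least 0.5) were alternatives, with other scaling, no filter, all libraries in one fit, a replicate block, a length offset and each library left out. Log2 CPM used a prior count of 2. The procedure was tested on simulated data. Figures used python 3.11.15 and matplotlib 3.10.9.

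The members and gene lists were chosen with earlier results of these data known. Beside the members, genes to name were picked from each list, up to 3 with the smallest p between Lpr and Ctr and up to 2 between DNase and Lpr. Not all of those picked are named. None is named from the lists of B cells, plasma cells, macrophages, monocytes, neutrophils, endothelium, podocytes, kidney tubule or adipocytes. The text also names all dendritic cell ligands, and the 3 genes most like each member, without symbols that start with Gm and digits or end in Rik. Leaving out Lpr replicate 3 from the lists, the levels relative to Ptprc and the order per length was added after the data were seen. Itgax, Tcf4 and Klk1, and the values of Mgl2 against Ctr, were added after their values were seen. Trac and Klra8 of the lists did not match a symbol in the table. Gene positions and exons are those of GENCODE M21 (GRCm38), and start sites and sequences those of RefSeq.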

Additional observations from a re-analysis of the deposited data

Results flagged for a closer look

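Of 20 groups of 4 kidneys tested (10 members in Lpr and in DNase), 3 held a sample whose gap to the nearest of the others took up most of the group's range, and chance flags about 1 in 20 groups. Batf3 stood at 1.59 log2 CPM in DNase replicate 3, against 0.41 to 0.61 in the other DNase kidneys. Siglech stood at -1.96 log2 CPM in the same kidney, against -0.81 to -0.68 in the others, on 8 reads. Cd209a stood at -0.13 log2 CPM in Lpr replicate 3, against -2.07 to -1.83 in the other Lpr kidneys, and this is the library whose counts fall with gene length.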

How the results depend on the processing

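Xcr1 kept its direction and passed the adjusted p under every setting that tested it between Lpr and Ctr, while the number of members called depended on the setting. Between Lpr and Ctr 2 members were called, 1 with the replicate block, 0 with limma on log2(FPKM + 1), 1 on log2(FPKM + 0.1), and 1 to 4 with a library left out. By the adjusted p alone there were 4, against 2 with the replicate block, 2 with limma on log2(FPKM + 1), and 1 to 5 with a library left out. Limma tested 6 of the 10 members, and Cd209a was not among them. Between DNase and Ctr 2 were called, 0 and 1 with limma on the same scales, and 2 to 4 with a library left out. By the adjusted p alone the 6 were kept in number in every left-out run. Between DNase and Lpr no setting called a member. Without Lpr replicate 3, a setting for the lists chosen after seeing the data, 6 of the other pDC genes were called against 2.

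Correlations between same-numbered libraries lay between -0.28 and 0.16. The sample titles do not say whether the numbers pair the mice, and these correlations, with nothing to compare them with, cannot decide it. Under the block Flt3 had an adjusted p of 0.0791 between DNase and Ctr. DESeq2 passed Batf3 (adjusted p = 0.0143) and Cd209a (0.0396) between Lpr and Ctr, the fit of all libraries Batf3 (0.0460), and the length offset Cd209a (log2 fold change -2.03, adjusted p = 0.0276).

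Signs turned for small values. Zbtb46 between Lpr and Ctr was 0.037 with the length offset and -0.24 to 0.12 with a library left out, and Siglech -0.11 to 1.02. Between DNase and Lpr Flt3 was -0.0062 by DESeq2, -0.0066 with its size factors, -0.00037 with all libraries and -0.083 with the length offset, Clec9a 0.0051 on log2(FPKM + 0.1), and Siglech 0.20 with the replicate block. With a library left out Clec9a ranged from -0.35 to 0.021, Flt3 from -0.19 to 0.24, Zbtb46 from -0.038 to 0.34, Siglech from -0.31 to 0.75 and Ly75 from -0.41 to 0.085. The cause was not tested. Siglech, Ccr9 and Cd209a rest on at most 60 reads a kidney, which limits what can be seen of them.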
